A study of Mus musculus with 28 samples.

Results

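The cytosolic ribosomal proteins and their named pseudogenes were taken from the gene expression tables by symbol: Rps or Rpl followed by a digit, Rplp0 to Rplp2 and Rpsa, without the Rps6k kinases. This gave 360 of the 45706 genes listed. Of these, 268 carry -ps in the symbol, the mark of a pseudogene, and 92 do not. The 92 were 77 ribosomal protein genes (31 of the small subunit, 43 of the large subunit and 3 of the stalk), 14 paralogs, and Rps19bp1, which codes for a protein that binds Rps19 and is not itself a ribosomal protein. A pseudogene was paired with the gene whose symbol stands before -ps, which was possible for 267 of the 268 and joined them to 59 genes, 57 of them among the 77.

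Ribosomal proteins build the small and the large subunit of the ribosome around the ribosomal RNAs, and every growing cell makes them in large and nearly equal amounts. In mammals most of these proteins come from a single gene with introns, but their abundant mRNAs have often been copied back into the genome. Such processed pseudogenes lack introns and can match the mRNA over its whole length, so a sequencing read from the mRNA may fit a gene and its copies equally well. A quantifier such as RSEM, which made the values used here, divides such reads among the genes they fit.

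All libraries came from mIMCD-3, epithelial cells of the mouse inner medullary collecting duct, taken from an SV40 transgenic animal and grown as unedited wild-type cells, with RNA taken 4 days after the cells were fully confluent. Polyclonal WT cells are the uncloned line, monoclonal WT5 grew from a single sorted cell, and subclones 1 to 5 were each sorted as a single cell from WT5 and expanded. There were 4 libraries of each of the 7 groups, 28 in all. Reads were 50 bases long from a single end in polyclonal cells and 150 bases long from both ends in WT5, and the runs were not done at the same time, so read length, batch and cell line cannot be told apart between them. The methods call the libraries biological replicates and a figure legend technical replicates, so p-values measure the spread between libraries, which may be technical. Every line is 1 clone or 1 uncloned stock. Values are TPM, transcript levels per length that are scaled to the same total in each library, and the depth behind them is unknown. Of 15 markers of collecting duct epithelium, 13 had a mean of at least 1 TPM in polyclonal cells and 10 in WT5, with Krt18, Epcam and Krt8 highest in polyclonal cells and Cldn4, Krt8 and Krt18 highest in WT5. Their sum was 2125.31 to 2409.14 TPM in polyclonal libraries and 4177.7 to 4320.26 TPM in WT5 libraries, and of 13 tested at the adjusted p-value alone, 5 were higher and 6 lower in WT5, beside 34.5% higher and 30.9% lower over all genes. The part of this difference in the results was not tested. The water channel gene Aqp2 was listed at 0 in both, and Gata3 and Avpr2 fell from 4.08 and 10.6 TPM in polyclonal cells to 0.04 and 0.06 TPM in WT5. Of 12 markers of other kidney, connective, vascular and blood cells, 2 reached 1 TPM, and their sum was at most 13.25 TPM in any library.

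The first 150 bases of the coding sequence are shown for the 3 pairs whose pseudogene differed most in z-score between the lines. They show how little there can be to tell a read of the gene from one of its copy. These copies are closer than most. Over all pseudogenes the median was 93.2% of the gene's coding bases matched and 21.2% of 50-base stretches found in the gene. The sequences were read from GENCODE M21 transcripts on GRCm38 and run 5′ to 3′ from the start codon. Capitals mark bases that differ between the members of a pair.
Rpl28: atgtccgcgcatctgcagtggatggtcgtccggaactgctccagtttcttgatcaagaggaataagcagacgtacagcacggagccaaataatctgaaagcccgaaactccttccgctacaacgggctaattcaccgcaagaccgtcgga
Rpl28-ps1: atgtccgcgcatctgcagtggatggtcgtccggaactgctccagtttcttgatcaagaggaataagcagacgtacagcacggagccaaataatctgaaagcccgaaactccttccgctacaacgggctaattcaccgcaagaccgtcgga
Rps15a: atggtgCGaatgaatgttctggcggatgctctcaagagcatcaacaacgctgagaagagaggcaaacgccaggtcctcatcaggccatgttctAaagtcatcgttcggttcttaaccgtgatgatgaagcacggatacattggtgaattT
Rps15a-ps7: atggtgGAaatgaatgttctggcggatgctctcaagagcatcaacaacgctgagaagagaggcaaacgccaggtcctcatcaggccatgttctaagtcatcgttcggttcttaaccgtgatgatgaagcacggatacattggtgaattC
Rps25: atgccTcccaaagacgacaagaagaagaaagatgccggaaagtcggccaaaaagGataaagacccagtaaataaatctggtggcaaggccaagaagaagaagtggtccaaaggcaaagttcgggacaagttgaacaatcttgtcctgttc
Rps25-ps1: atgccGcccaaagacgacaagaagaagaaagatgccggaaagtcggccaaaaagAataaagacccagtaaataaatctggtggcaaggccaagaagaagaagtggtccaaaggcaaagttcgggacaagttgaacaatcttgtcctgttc
Rpl28-ps1 lies on chromosome 1 (chr1:128038569-128038718, plus strand) and Rpl28 on chromosome 7 (chr7:4792874-4795066, plus strand), and the 150 bases shown are identical. Rps15a-ps7 lies on chromosome 2 (chr2:152185534-152185682, minus strand) and differs from Rps15a (chr7:118104372-118116188, minus strand) by C7G, G8A and T150C, with the gene's base before the coding position and the pseudogene's after it, and by 1 base of the gene that it lacks. Rps25-ps1 lies on chromosome 6 (chr6:145266400-145266549, plus strand) and differs from Rps25 (chr9:44407139-44410427, plus strand) by T6G and G55A. The coordinates of a pseudogene are those of the bases shown and those of a gene are its full extent, introns included. Over the whole coding sequence the 3 pairs differed by 0, 5 and 4 bases. All 3 pseudogenes lie on another chromosome than their gene.

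The 77 genes were well expressed in every group, and the pseudogenes held a large share of the TPM only in polyclonal cells among the 7 groups. The summed TPM of the 92 genes was 119002 ± 7015 (SD, n = 4) in polyclonal cells and 170538 ± 5040 in WT5. The summed TPM of the 268 pseudogenes was 31125 ± 1670 in polyclonal cells and 4862 ± 271 in WT5. Neither sum overlapped between the lines, with pseudogene sums of 29461 to 33084 against 4694 to 5267. Pseudogenes thus made up 20.7% ± 0.512 of the TPM of genes, paralogs and pseudogenes in polyclonal cells and 2.77% ± 0.0981 in WT5. In the subclones this share lay between 2.56% ± 0.160 in subclone 1 and 2.80% ± 0.223 in subclone 5. It overlapped the range of WT5, 2.67% to 2.90%, in each of them.

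**Figure D1:**
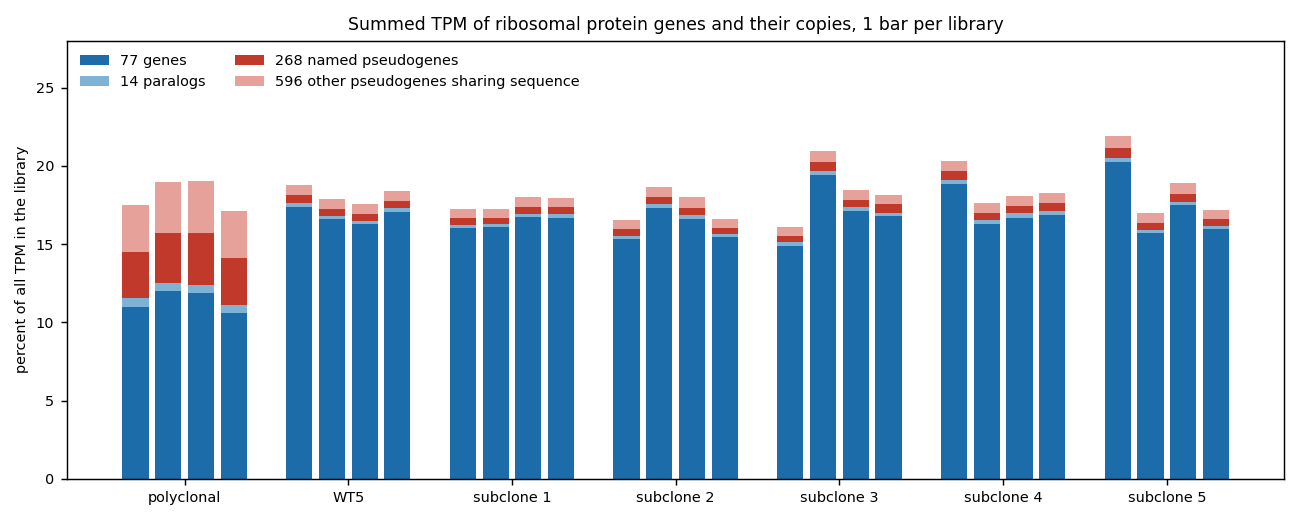
Summed TPM of the 77 ribosomal protein genes, the 14 paralogs, the 268 named pseudogenes and 596 other pseudogenes that share sequence with the genes, as a percentage of all TPM in a library (y axis), with a bar for each of the 28 libraries in 7 groups (x axis). The pseudogene sections are large in the 4 polyclonal bars and thin in the other 24, while the height of the polyclonal and WT5 bars overlaps, from 17.1% to 19.1% against 17.5% to 18.8%.

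A further 596 pseudogenes without a ribosomal protein name share at least 1 stretch of 50 bases with the 77 genes, and most are listed under Gm numbers. Their summed TPM was 31505 ± 1673 in polyclonal cells and 6055 ± 191 in WT5. When genes, paralogs, named pseudogenes and these further copies were added up, the sums were 181574 ± 10089 TPM in polyclonal cells and 181367 ± 5446 TPM in WT5. These ranges overlapped, with 171153 to 190563 against 175330 to 187649. This wider total was chosen after the values had been seen. Over the 360 members alone the sum was 150127 TPM (141005 to 157402) in polyclonal cells. In WT5 it was 175399 TPM (169577 to 181464), without overlap. The lines thus differed in the total of the members. In the wider total they differed by far less than in its division between genes and copies. TPM is per length, so the sum is one of levels and not of reads.

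Of the 268 pseudogenes, 256 are annotated as processed pseudogenes, 6 as transcribed processed pseudogenes and 6 as protein coding. In polyclonal cells 34 of them had a mean of at least 100 TPM and 15 a mean of at least 1000 TPM. In WT5 these numbers were 3 and 1, and in the subclones 3 to 5 and 1. The mean was higher in polyclonal cells than in WT5 for 224 pseudogenes and lower for 9, and 32 were listed at 0 in all 28 libraries. Among the 157 with a value above 0 in all 4 polyclonal libraries, 67 were listed at 0 in all 4 WT5 libraries and 106 in at least 1. Fewer genes of any kind were above 0 in WT5, with 16318 to 16536 in a library against 18681 to 19272 in polyclonal cells. The same counts of direction and of values at 0 are not given over all genes, so those above are not read as an excess. Only the 51 pseudogenes above 0 in all 8 libraries could be tested, so the 217 others are described by their values alone.

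For the test, log2(TPM) was turned into z-scores in each library. A gene was called where the z-scores of the lines differed by more than 1 and the p-value, adjusted over all genes tested, was below 0.01. Over all genes tested, 5.43% passed both thresholds, 2.31% higher and 3.12% lower in WT5. Of the 51 pseudogenes tested, 35 passed and all 35 were lower in WT5. Their number was 34 to 38 with each library left out in turn. Without the threshold on size, 43 were lower and 2 higher, beside 30.9% lower and 34.5% higher over all genes. Among the 51 the median of the log2 differences was −4.67, and that of all genes 0.24. The 35 were copies of 28 genes, 14 of them copies of small subunit genes and 21 of large subunit genes, and no pseudogene was called higher.

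The 8 pseudogenes with the highest mean over both lines show the range of this pattern. Rpl27-ps3 is a copy of Rpl27, a protein of the large subunit. It measured 1542.71, 1718.01, 1683.79 and 1542.55 TPM in the polyclonal libraries and 31.34, 30.35, 29.14 and 28.19 TPM in WT5, and Rpl27 itself 63.04, 58.87, 69.50 and 56.88 TPM in polyclonal cells and 1849.11, 1714.04, 1665.76 and 1761.69 TPM in WT5. Gene and copy thus exchanged places without overlap, with log2 differences of 4.82 ± 0.071 (SE) for Rpl27 and −5.77 ± 0.057 for Rpl27-ps3. The sum of both was 1684 ± 94.3 TPM in polyclonal cells and 1777 ± 78.9 TPM in WT5, and the sum of Rpl27 with all its named pseudogenes did not pass the test (log2 difference 0.08, adjusted p = 0.0616 by limma on z-scores).

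Rpl31 and Rpl31-ps8 gave a like picture at a smaller size. Rpl31, of the large subunit, had 898 ± 58.3 TPM in polyclonal cells and 2475 ± 167 TPM in WT5, and Rpl31-ps8 had 1546 ± 131 and 129 ± 21.1 TPM. The sum of the pair was 2444 ± 179 and 2604 ± 187 TPM, with overlapping libraries. The sum over all named copies of Rpl31 did not pass the test (log2 difference 0.08, adjusted p = 0.194).

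Rps12, of the small subunit, measured 1129.50, 905.81, 735.80 and 930.75 TPM in polyclonal cells, while Rps12-ps3 measured 1881.85, 2320.76, 2368.20 and 2065.86 TPM in the same libraries. The library highest for the gene was the lowest for its pseudogene and the reverse, and the sum had a smaller SD (3085 ± 106 TPM) than the gene (925 ± 161) or the pseudogene (2159 ± 228). In WT5 Rps12 stood at 4966 ± 156 TPM and Rps12-ps3 at 39.2 ± 6.35 TPM. The sum of Rps12 with all its named pseudogenes was higher in WT5 by 0.69 on the log2 scale (adjusted p = 1.29e-05), without reaching a z-score difference of 1.

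Other pairs did not come to like sums. Rpl30-ps9, a copy of the large subunit gene Rpl30, measured 2209 to 2353 TPM in polyclonal cells and was listed at 0 in the 4 WT5 libraries, whereas Rpl30 had 1353 ± 43.7 and 1384 ± 80.7 TPM. Their sum was 3629 ± 97.1 TPM in polyclonal cells and 1384 ± 80.7 TPM in WT5. Rpsa, which codes for the laminin receptor protein of the small subunit, had 977 ± 63.9 and 901 ± 21.0 TPM, and Rpsa-ps10 had 1406 ± 90.0 and 6.30 ± 0.420 TPM. The sum with all copies of Rpsa was lower in WT5 by 1.51 on the log2 scale (adjusted p = 1.45e-08). For Rps23 and Rps23-ps1 the sums were 2198 ± 103 and 994 ± 68.8 TPM, and for Rpl10 and Rpl10-ps3 they were 2475 ± 152 and 1783 ± 30.4 TPM. In both of these pairs the gene was higher and the pseudogene lower in WT5, without overlap.

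Rpl34-ps1 was an exception among the abundant copies. It measured 2231.89, 2405.44, 2393.13 and 2274.04 TPM in polyclonal cells and 4013.17, 3656.34, 3544.81 and 3551.85 TPM in WT5, all above the polyclonal libraries (log2 difference 0.67 ± 0.055, adjusted p = 4.37e-05, z-score difference 0.17). Rpl34, of the large subunit, had 1309 ± 64.3 and 1704 ± 101 TPM. The pseudogene held 64.0% ± 0.950 of the pair in polyclonal cells and 68.4% ± 0.269 in WT5. By another measure, all named copies of Rpl34 together held 56.8% to 57.3% of their sum with the gene in the means of the 5 subclones. Of the 51 pseudogenes tested, Rpl34-ps1 and Rps2-ps6 were the 2 higher in WT5 at the adjusted p-value alone. Rps2-ps6, a copy of the small subunit gene Rps2, had 0.66, 0.09, 0.23 and 0.25 TPM in polyclonal cells and 1.56, 1.78, 1.78 and 1.41 TPM in WT5, low in both and without overlap (adjusted p = 0.00275). Others were lower in WT5 by less than the size required, among them Rps26-ps1 with 125 ± 4.82 and 85.0 ± 9.17 TPM and Rps10-ps2 with 101 ± 23.8 and 51.9 ± 4.85 TPM. Rpl34-ps1 accounted for most of what the named pseudogenes held in WT5, 3692 ± 220 of 4862 TPM.

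The 3 called pseudogenes with the largest decrease in z-score are those whose sequences are given above. Rps15a-ps7 measured 422.45, 468.93, 462.08 and 417.03 TPM in polyclonal cells and 1.14, 0.78, 2.08 and 0.77 TPM in WT5 (log2 difference −8.66 ± 0.305, adjusted p = 1.76e-07). Rps15a, of the small subunit, was also lower, with 1453 ± 91.3 and 804 ± 20.2 TPM, with sums of 1896 ± 111 and 805 ± 20.3 TPM. Rps25-ps1 had 204 ± 8.15 and 0.660 ± 0.272 TPM (adjusted p = 1.94e-07), and Rps25, also of the small subunit, 765 ± 27.8 and 1077 ± 33.0 TPM. The sum of this pair was 969 ± 26.9 and 1077 ± 33.1 TPM. Rpl28-ps1, identical to Rpl28 over its coding sequence, had 1085 ± 108 and 3.40 ± 0.428 TPM (adjusted p = 8.10e-10), with sums of 2421 ± 212 and 2191 ± 71.6 TPM.

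**Figure D2:**
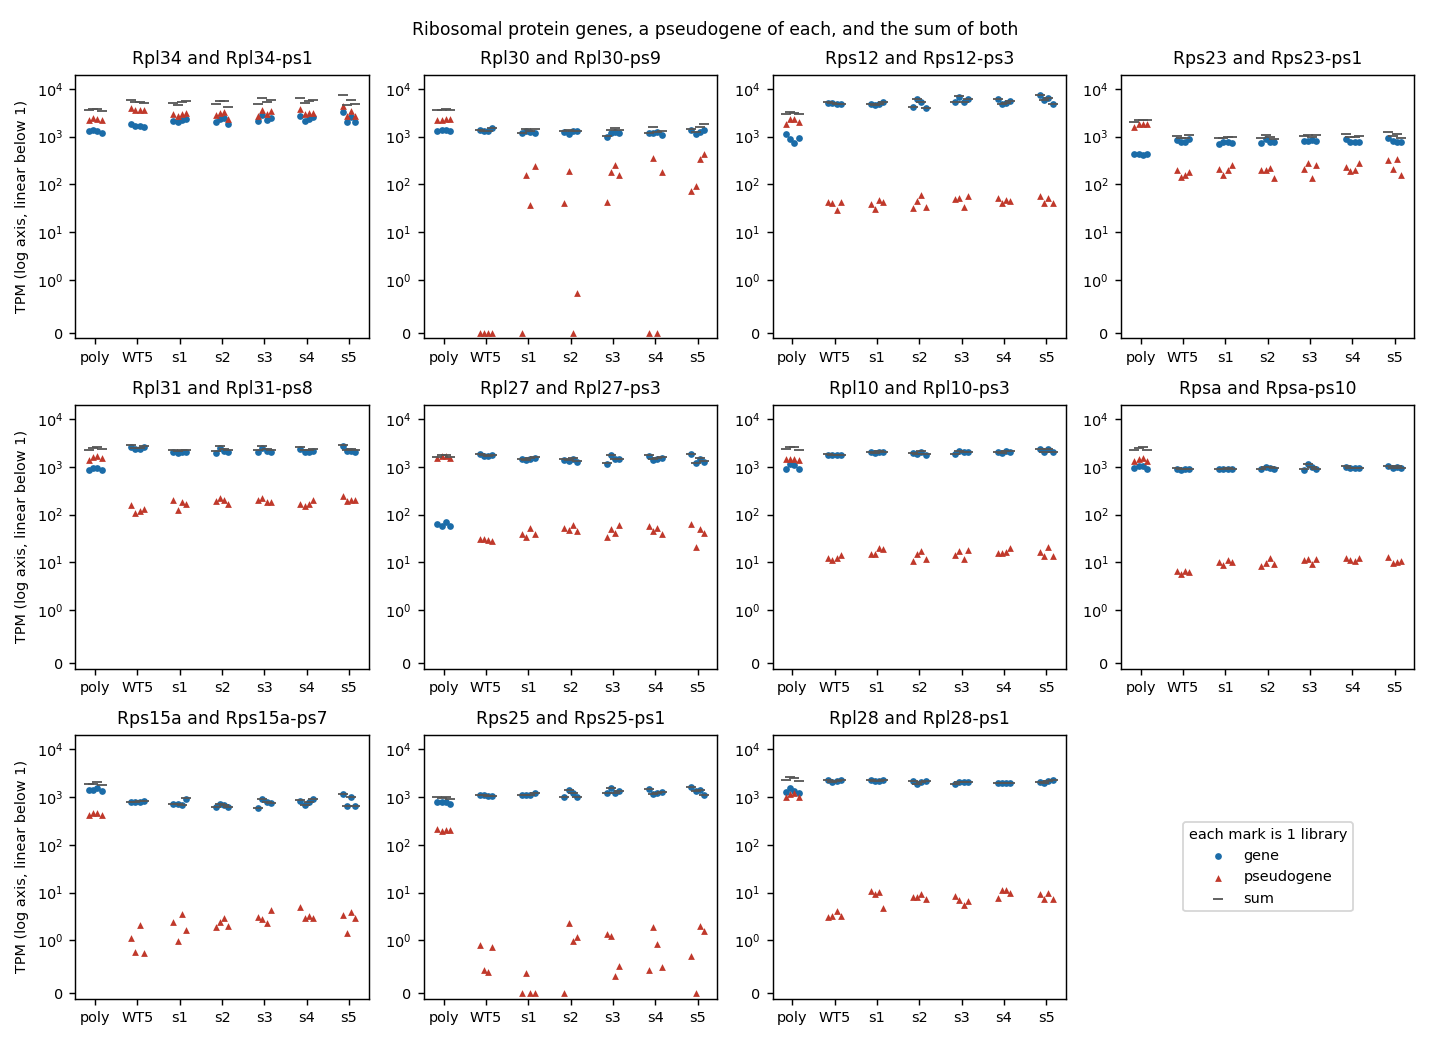
TPM (y axis, log above 1 and linear below it) of 11 ribosomal protein genes, a pseudogene of each and the sum of both in polyclonal cells (poly), WT5 and subclones 1 to 5 (s1 to s5), with a mark for each library. In polyclonal cells the pseudogene lies near or above the gene in most panels, in WT5 it lies far below it except for Rpl34-ps1, and the subclones lie near WT5 in most panels.

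Over all named copies, pseudogenes held over 50% of the summed TPM of a gene with its copies for 15 of 59 genes in polyclonal cells and for 1, Rpl34, in WT5. The share in polyclonal cells was 96.3% for Rpl27, 80.5% for Rps23 and 76.7% for Rpl10a, against 1.76%, 17.1% and 3.94% in WT5. For genes such as Rplp0, Rplp1, Rps29 and Rpl35 it was below 0.1% in both lines.

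Levels of pseudogenes went with how much sequence they share with their gene. The measure was the share of all 50-base stretches of a pseudogene's longest transcript that occur in any transcript of the gene. The median share was 88.1% for the 34 pseudogenes with at least 100 TPM in polyclonal cells, 38.0% for the 72 between 1 and 100 TPM, and 3.83% for the 162 below 1 TPM. For 13 pseudogenes every stretch of 50 bases, and of 150 bases, occurs in the gene. These 13 had a median of 1085 TPM in polyclonal cells and 40.6 TPM in WT5. Of the 54 with no shared stretch the highest mean was 14.1 TPM in polyclonal cells and 0.797 TPM in WT5. Across the 232 pseudogenes above 0 in polyclonal cells, Spearman's rho between shared stretches and mean TPM was 0.68 with the polyclonal means and 0.68 with the WT5 means. Pseudogenes of a gene share reads and sequence with each other, so these are descriptions of genes that are not independent.

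**Figure D3:**
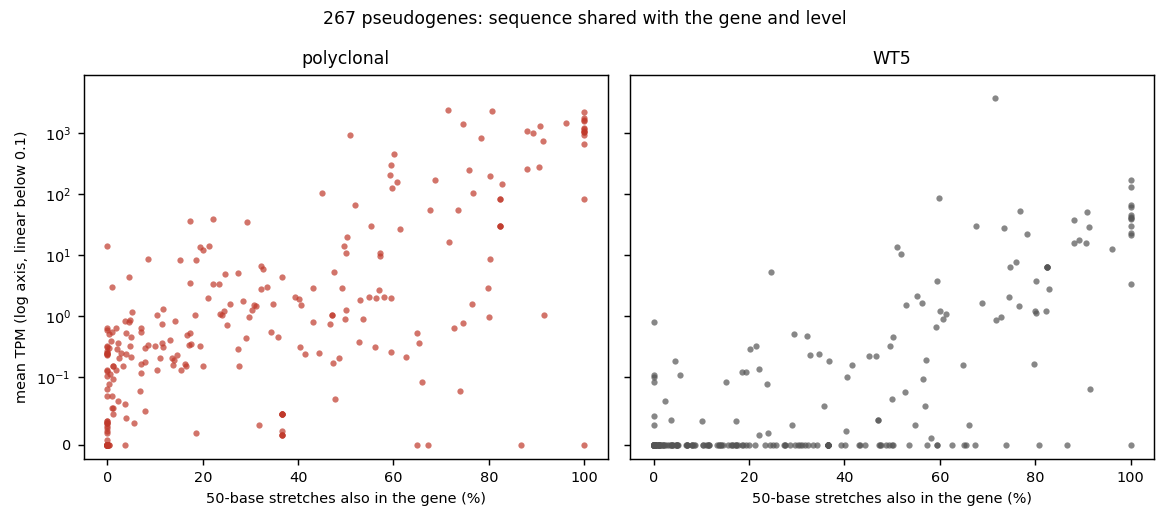
Mean TPM (y axis, log above 0.1 and linear below it) of 267 pseudogenes against the share of their 50-base stretches found in the gene (x axis, in percent), in polyclonal cells on the left and WT5 on the right, with a point for each pseudogene. Levels are higher to the right in both panels, and the 13 points at 100% reach 2159 TPM in polyclonal cells and 171 TPM in WT5.

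Some pseudogenes share a single sequence among themselves, so that the value of any one of them is uncertain. These were Rps12-ps11 to Rps12-ps15, Rps12-ps6 with Rps12-ps17 and Rps12-ps18, Rps19-ps1 with Rps19-ps2, and Rpl35a-ps2, Rpl35a-ps3, Rpl35a-ps4 and Rpl35a-ps6. Of the last group, Rpl35a-ps2 was among the 35 called and the other 3 were tested and not called. All 4 had equal values in 7 of 8 libraries of both lines, 37.05 to 43.16 TPM in polyclonal cells and 5.65 to 7.59 TPM in WT5, but in polyclonal replicate 3 Rpl35a-ps2 was listed at 213.72 TPM and each of the others at 1.46 TPM.

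Of the 77 ribosomal protein genes, 3 passed both thresholds, all higher in WT5, beside 2.31% higher over all genes. They were Rpl12, Rpl27 and Rpl5, all of the large subunit. Rpl12 measured 52.16, 58.10, 58.82 and 51.39 TPM in polyclonal cells and 2248.20, 2303.78, 2221.38 and 2199.21 TPM in WT5 (40.8-fold, log2 difference 5.35 ± 0.057, adjusted p = 6.22e-10). Rpl5, which binds the 5S ribosomal RNA, measured 91.93, 81.16, 84.36 and 85.01 TPM and 1856.02, 1770.79, 1772.97 and 1864.58 TPM (21.2-fold, log2 difference 4.41 ± 0.050, adjusted p = 1.90e-09). In polyclonal cells Rpl12, Rpl27 and Rpl5 had the lowest means of the 77 genes, and in WT5 the lowest mean was that of Rps20.

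Without the threshold on size, 44 of the 77 genes were higher and 18 lower, beside 34.5% and 30.9% over all genes, and 51 against 12 when log2(TPM) was tested as it stood, beside 45.2% and 21.6%. By subunit, 29 of 43 large subunit genes were higher and 6 lower, and 15 of 31 small subunit genes were higher and 10 lower. Of the 3 stalk genes, Rplp0 and Rplp2 were lower and Rplp1 did not pass. The median log2 difference was 0.58 for the 77 genes, 0.82 for the large and 0.24 for the small subunit. The median over all genes tested was 0.24.

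The 4 genes with the highest mean over all libraries were Rps27, Rps12, Rps15 and Rpl23a. Rps27, of the small subunit, had 1109 ± 205 TPM in polyclonal cells and 9059 ± 358 TPM in WT5 (8.27-fold, adjusted p = 3.07e-07), with a z-score difference of 0.94. Rps15 had 2945 ± 196 and 4733 ± 164 TPM, and Rpl23a 1649 ± 47.0 and 4338 ± 90.0 TPM. All 4 were higher in WT5 without overlap and under the threshold on size.

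The 4 genes with the lowest mean were Rpl39, Rpl37, Rps20 and Rpl27a. Rpl39 had 545 ± 42.9 and 815 ± 34.5 TPM, Rpl37 527 ± 47.6 and 788 ± 69.2 TPM, and Rpl27a 395 ± 19.4 and 871 ± 46.7 TPM, all higher in WT5. Rps20 went the other way, with 754 ± 46.8 and 449 ± 40.4 TPM (log2 difference −0.75 ± 0.077, adjusted p = 8.84e-06). In the subclones Rps20 had means of 601 to 677 TPM, between those of WT5 and polyclonal cells.

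Adding the named pseudogenes moved the genes toward each other in part. Pair sums were tested in the same way for 58 genes with named copies, beside 5.19% called over all rows of that table. Of these, 2 passed, Rpl12 and Rpl5, whose named pseudogenes were listed at 0 in WT5 and reached at most 2.69 and 21.83 TPM in polyclonal cells, and Rpl27 no longer did. Without the threshold on size, 22 sums were higher and 24 lower, beside 33.8% and 31.5% over all rows, where 36 of the genes alone were higher and 11 lower. Over the 57 core genes with named copies the median log2 difference was 0.67 for the gene alone and 0.13 for the sum. For the 20 genes without named copies it was 0.19.

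Rpl12 and Rpl5 have close copies under Gm numbers. Gm10275, which shares 585 of its 586 stretches of 50 bases with Rpl12, had 2956 ± 177 TPM in polyclonal cells and 38.8 ± 3.18 TPM in WT5. Gm15500 shares 969 of 970 stretches with Rpl5 and had 2871 ± 83.2 and 51.3 ± 4.18 TPM. With every pseudogene that shares a stretch added, a sum chosen after the values had been seen, Rpl12 came to 3024 ± 177 TPM in polyclonal cells and 2283 ± 48.2 TPM in WT5, and Rpl5 to 2980 ± 88.0 and 1867 ± 53.7 TPM. Both sums were then lower in WT5, where the genes alone were higher (log2 differences −0.40 and −0.67, adjusted p = 4.71e-06 and 3.15e-06). Of the 77 such sums, 0 passed both thresholds by limma, beside 5.00% over all rows of that table, while 68 had an unadjusted p-value below 0.05, and 20 were higher and 44 lower at the adjusted p-value alone, beside 33.3% and 32.0%. For the unadjusted p-value no share over all rows is given, so the 68 are not read as an excess.

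The sums still differed between lines for single genes. Rps20 with its copies was lower in WT5 by 2.19 on the log2 scale and Rpl23 by 1.91, whereas Rpl29, Rpl7a, Rpl36 and Rps2 were higher by 2.64, 2.25, 2.07 and 1.83. The SD over the 77 genes of the log2 difference was 1.22 for genes alone, 1.16 for pair sums and 0.90 for sums over every copy. The number of genes with a log2 difference above 1 in size was 24, 20 and 18.

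**Figure D4:**
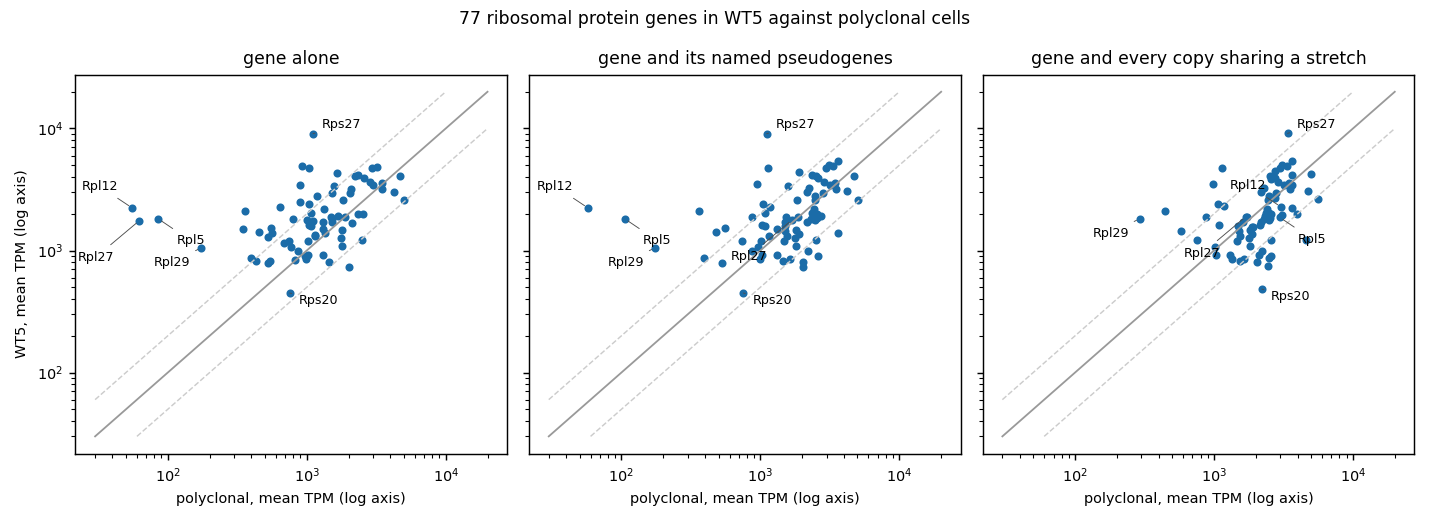
Mean TPM in WT5 (y axis, log) against polyclonal cells (x axis, log) of 77 ribosomal protein genes, for the gene alone, with its named pseudogenes, and with every pseudogene or paralog that shares 50 bases with it. The solid line marks equal means and the dashed lines a log2 difference of 1, and Rpl12, Rpl5 and Rpl27 move from far above the line toward it, Rpl27 already in the middle panel.

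Among the 14 paralogs, 9 could be tested and 4 passed, all lower in WT5, Rps27rt, Rps3a3, Rpl37rt and Rps3a2, beside 5.43% of all genes passing and 3.12% passing as lower. Rps27rt, a retrocopy of Rps27 that is annotated as a gene, measured 2332.73, 2375.22, 2227.14 and 2152.61 TPM in polyclonal cells and 61.11, 58.67, 48.63 and 76.05 TPM in WT5 (log2 difference −5.23 ± 0.126, adjusted p = 3.18e-08). Its direction was opposite to that of Rps27. Rps3a2 had 598 ± 44.0 and 69.5 ± 2.37 TPM, Rpl37rt 814 ± 101 and 65.0 ± 4.62 TPM, and Rps3a3 5.06 ± 0.545 and 0.198 ± 0.0943 TPM. Of Rps27rt, 91.1% of all 50-base stretches occur in another gene, and of Rps3a2, 90.2%.

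Rpl36al, Rpl7l1, Rpl22l1 and Rps27l did not pass both thresholds, and Rpl6l was not among the paralogs that passed either. The shared stretches of Rpl6l, Rpl37rt and Rps3a3 are not given, and whether the shares went with the calls was not tested. Of the stretches of Rpl36al, 24.9% occur in another gene, and of Rpl7l1, Rpl22l1 and Rps27l 9.03%, 9.52% and 13.7%. Rpl36al had 793 ± 58.6 and 907 ± 51.3 TPM with overlapping z-scores, Rpl7l1, a factor of ribosome assembly, 82.4 ± 2.91 and 94.8 ± 2.20 TPM, and Rpl22l1 558 ± 27.0 and 500 ± 38.7 TPM. Rps27l, a paralog known as a p53 target, was higher in WT5, with 221 ± 14.7 and 452 ± 26.5 TPM (2.05-fold, adjusted p = 4.95e-06, z-score difference 0.28). Rpl39l and Rps4l were listed at 0 in all 28 libraries. Rpl3l, a paralog of heart and skeletal muscle, and Rpl10l, of testis, had means of at most 0.113 TPM in both lines.

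Other genes of translation were read beside them. Of ribosomal proteins whose symbols the choice leaves out, Fau had 397 ± 37.8 TPM in polyclonal cells and 3804 ± 155 TPM in WT5 and passed as higher, and Rack1 had 2812 ± 120 and 1617 ± 66.8 TPM. Of 15 elongation factors and other mRNAs with a 5′ TOP tract, the motif that ribosomal protein mRNAs share, 13 were lower in WT5 at the adjusted p-value alone and none by a z-score difference above 1, among them Eef1a1 with 11472 ± 565 and 5209 ± 147 TPM. Of 30 ribosome assembly genes, 12 were higher and 8 lower at the adjusted p-value alone, and of 78 genes of the mitochondrial ribosome 28 were higher and 27 lower, beside 34.5% and 30.9% over all genes. Of 12 regulators, 6 were higher and 3 lower, and Mycn passed both thresholds with 0.340 ± 0.0245 and 13.0 ± 0.961 TPM.

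The subclones were next compared with WT5, from which they descend. The 5 comparisons share the WT5 libraries, and WT5 stands in another table than the subclones. Of 133 members tested, 0 passed both thresholds in any subclone by limma, and 0 by an unequal-variance test, while 82, 71, 88, 90 and 79 had an unadjusted p-value below 0.05 in subclones 1 to 5. No share over all genes is given at the unadjusted p-value, so these numbers are not read as an excess. The share called was 0.152%, 0.144%, 0.173%, 0.202% and 0.173% of all genes. At the adjusted p-value alone, 25, 20, 37, 43 and 23 of the 77 genes were higher in z-score and 7, 1, 0, 1 and 3 lower, beside 12.7%, 13.4%, 8.65%, 18.2% and 10.2% higher and 13.6%, 12.6%, 10.9%, 19.2% and 11.7% lower over all genes. This direction turned with the scale in subclones 1, 2, 3 and 5, and in subclone 4 the balance shrank. When log2(TPM) was tested as it stood, 12, 7, 5, 15 and 4 genes were higher and 22, 20, 8, 11 and 9 lower, beside 9.23%, 7.29%, 4.65%, 13.4% and 4.68% higher and 16.4%, 13.8%, 11.8%, 23.6% and 11.6% lower, and the median log2 difference of the 77 genes lay between −0.06 and 0.03.

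The counts on z-scores changed when a library was left out. Such a test also rests on fewer libraries, so a fall in number cannot be assigned to the library left out. With each library left out in turn, the number of higher genes ranged from 18 to 24, 10 to 19, 22 to 38, 37 to 46 and 14 to 27. In subclone 2 it fell to 12, 10, 11 and 10 without WT5 replicates 1 to 4, and to 11 and 12 without its own replicates 3 and 4. In subclone 3 it fell to 24, 22 and 22 without WT5 replicates 1 to 3 and to 24 without its replicate 3, and in subclone 5 to 14, 14 and 15 without WT5 replicates 2 to 4 and to 15 without its replicate 3. The number of lower genes ranged from 5 to 7, 1 to 5, 0 to 1, 0 to 5 and 0 to 5. In subclone 2 it was 2 and 5 without its replicates 1 and 2, in subclone 3 it was 1 without its replicate 2 or 3, and in subclone 4 it was 0 without WT5 replicate 4 and 5 without its own replicate 1. In subclone 5 it was 0 without any one of the WT5 libraries, 5 without its replicate 1 and 1 without its replicate 2, 3 or 4. The summed TPM of the 77 genes varied more in the subclones than in WT5, from 148738 to 194142 in subclone 3 and from 157206 to 202534 in subclone 5.

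Single genes differed from WT5 in the same way in several subclones. The comparisons share the WT5 libraries, which stand in another table, so such a shift cannot be told from one of WT5 or of the tables. Rps21, of the small subunit, measured 2236 to 2583 TPM in WT5 and 3144 to 5077 TPM over the 20 subclone libraries, so that no library overlapped. Rpl39 had 815 ± 34.5 TPM in WT5 and 488 ± 63.1 to 572 ± 75.5 TPM in the subclones, and had the largest decrease in z-score of the genes and paralogs in all but subclone 2, with an adjusted p-value below 0.01 in subclones 1, 4 and 5. In subclone 2 it was Rpl11, with 1535 ± 62.0 TPM in WT5 and 974 ± 20.5 TPM in subclone 2 (log2 difference −0.66 ± 0.045, adjusted p = 0.0013 on z-scores). Rps3a3 had the largest increase in z-score of the genes and paralogs in all 5, from 0.198 ± 0.0943 TPM in WT5 to means of 0.427 to 0.755 TPM. In the fit on pair sums, its increase did not pass the adjusted p-value in subclones 3 and 5 (0.0385 and 0.101 by limma on z-scores). Its z-scores overlapped those of WT5 in both. Rps21, named here after its values were seen, had log2 differences of 0.60 to 0.75 and passed the adjusted p-value in all 5.

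The named pseudogenes stayed low in the subclones. Of 46 tested, 9, 11, 14, 18 and 12 were higher and 2, 1, 1, 1 and 1 lower at the adjusted p-value alone, and with log2(TPM) as it stood 9, 10, 13, 18 and 12 were higher and 3, 1, 2, 1 and 1 lower. Over all genes the shares by z-score were 12.7%, 13.4%, 8.65%, 18.2% and 10.2% for higher and 13.6%, 12.6%, 10.9%, 19.2% and 11.7% for lower, and on log2(TPM) 9.23%, 7.29%, 4.65%, 13.4% and 4.68% for higher and 16.4%, 13.8%, 11.8%, 23.6% and 11.6% for lower. The median log2 difference was 0.24 to 0.41, where that of all genes was −0.10 to −0.04. Without single libraries the number higher fell to 5 in subclone 2 (WT5 replicate 2), 9 in subclone 3 (WT5 replicate 4) and 7 in subclone 5 (WT5 replicate 3 or 4), and in subclone 2 to 7 and 6 without WT5 replicate 4 and its own replicate 2. The number lower ranged from 1 to 2, 1 to 1, 0 to 3, 1 to 1 and 0 to 2. In subclone 1 it was 1 without any 1 library other than WT5 replicate 3 and its own replicate 3. In subclone 3 it was 0 without WT5 replicate 1, 2 or 4 or its own replicate 1, 3 or 4, and 3 without its replicate 2, and in subclone 5 it was 0 without any one of the WT5 libraries or its own replicate 3 and 2 without its replicate 1. Rpl17-ps8, with the largest increase in subclones 2, 3 and 5, had 1.23 ± 0.294 TPM in WT5 and 4.43 ± 1.31 to 7.08 ± 2.75 TPM in the subclones, far under the 82.7 ± 1.45 TPM of polyclonal cells. In subclones 1 and 4 it was Rpl7-ps7, with 0.228 ± 0.108 TPM in WT5 and 0.908 ± 0.464 and 1.13 ± 0.127 TPM. Rps2-ps10 and Rps19-ps6 had the largest decreases, with 27.6 ± 1.37 and 29.7 ± 4.83 TPM in WT5 and means of 15.8 to 18.7 and 16.3 to 22.3 TPM in the subclones.

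A few members that could not be tested between WT5 and the subclones had values in some libraries only. Rpl30-ps9, listed at 0 in WT5, ranged from 0 to 428 TPM over the subclone libraries and differed as much within a subclone as between them, for example 0, 362.89, 0 and 182.78 TPM in subclone 4. Rps12l1, a paralog listed at 0 in all 8 libraries of polyclonal cells and WT5 and classed as a paralog after its values were seen, was above 0 in all 20 subclone libraries, between 2.05 and 28.5 TPM. Rpl38-ps2 had 21.8 to 96.7 TPM in WT5 and was listed at 0 in 3 libraries of subclone 1. For these no call could be made, and the values of Rps12l1 divide as the tables do.

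The last comparison was among the 5 subclones, which stand in a single table. By the F-test of limma 0.635% of all genes passed both thresholds, and 0 of 133 members did, with 36 at an unadjusted p-value below 0.05, for which no share over all genes is given. At the adjusted p-value alone, 8 members differed, beside 25.0% over all genes, and none of the 46 pseudogenes was among them. The 3 with the smallest p-values were Rpl36al, Rps29 and Rpl21. Rpl36al measured 1351.07, 1159.04, 1160.75 and 1171.58 TPM in subclone 4 and 829.18, 685.63, 753.02 and 682.12 TPM in subclone 5, its highest and lowest groups, which did not overlap (adjusted p = 0.000323). The other subclones lay between 791 and 1109 TPM and WT5 between 854 and 963 TPM. Rps29, a zinc-binding protein of the small subunit, had 2940.80, 3088.66, 3173.99 and 2358.44 TPM in subclone 4 and 1757.73, 1295.41, 1365.18 and 1795.55 TPM in subclone 5 (adjusted p = 0.000375), with WT5 at 1606 ± 116 TPM. The span between the highest and the lowest mean was 0.72 on the log2 scale for Rpl36al and 0.90 for Rps29. For Rpl21 it was 0.20, with the lowest mean in subclone 1 (1295 ± 53.1 TPM) and the highest in subclone 5 (1487 ± 70.9 TPM, adjusted p = 0.0011), and neighbouring subclones overlapped.

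**Figure D5:**
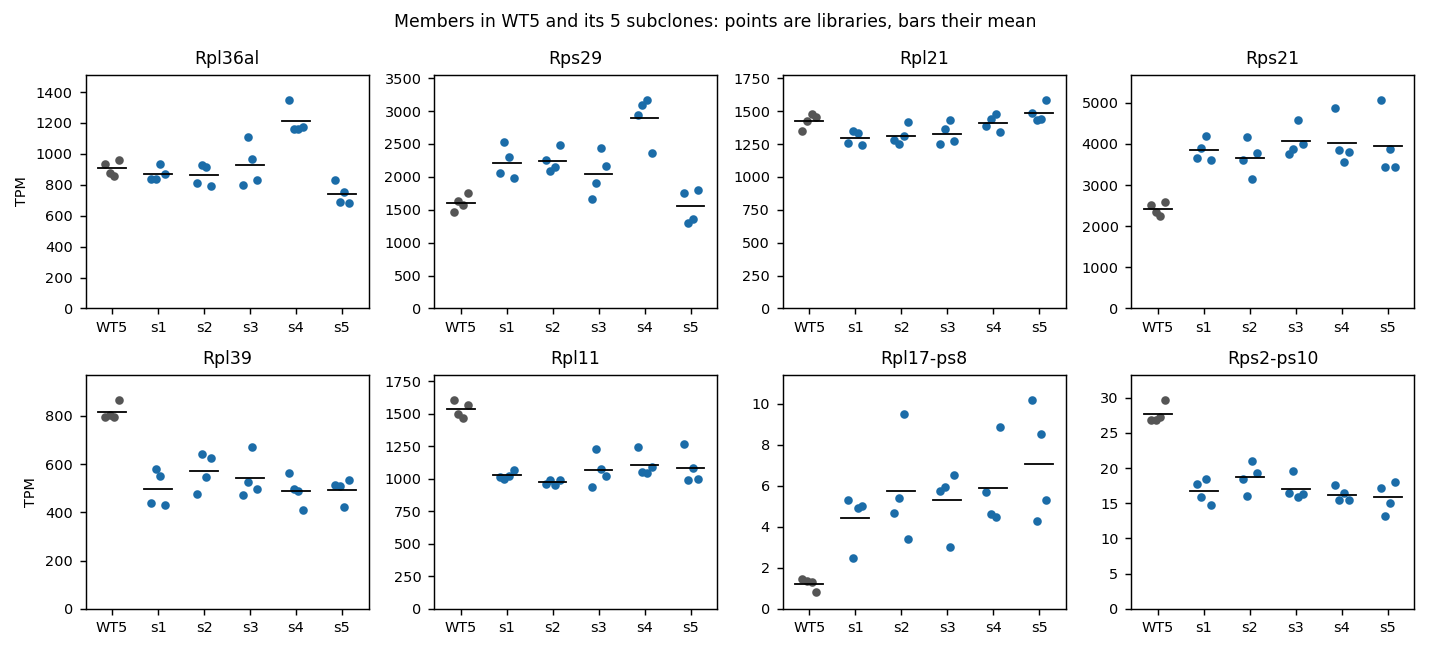
TPM (y axis, from 0) of 8 members in WT5 and subclones 1 to 5 (s1 to s5), with a point for each library and a bar at the mean of a group. Rpl36al and Rps29 are highest in subclone 4 and lowest in subclone 5, Rps21 and Rpl17-ps8 are higher and Rpl39, Rpl11 and Rps2-ps10 lower in the subclones than in WT5.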

How the data were processed

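The authors deposited 2 tables of TPM (transcript levels per length, scaled to the same total in each library) over the same 45706 gene IDs, one with polyclonal cells and WT5 and one with the subclones. Per the labels and the methods, libraries were made from total RNA with standard Illumina protocols, base calling used CASAVA 1.8, reads were aligned with STAR 2.7.3a to GRCm38 with Ensembl release 81, and RSEM 1.3.1 gave the TPM. RSEM divides reads that fit several genes by estimation, so the values of near-identical genes are uncertain. Depth is unknown, so no counting interval is given. Values carry 2 decimals, and a row at 0 is written as listed at 0.

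Symbols came from a GENCODE M21 gene name table, which matched 45143 IDs. Sequences and shared stretches of 50 or 150 bases came from GENCODE M21 transcripts. For genes above 0 in all libraries of a comparison, log2(TPM) was turned into z-scores in each library and tested with limma 3.58.1 in R 4.3.3, two-sided, with Benjamini-Hochberg adjustment over all genes tested. A call needed a z-score difference larger than 1 besides an adjusted p-value under 0.01. Fold changes are of geometric means. A pair sum replaced a gene by its sum with its -ps rows, and a sum over every copy also took pseudogenes and paralogs sharing 50 bases with it. The test was checked on simulated data. Python 3.11.15 did the rest.

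Members, gene lists and named genes were chosen with earlier results of these data known. Named were the 8 most abundant pseudogenes, the 3 called pseudogenes with the largest change in each direction, the 4 highest and 4 lowest genes, the 3 genes or paralogs with the largest change in each direction, all paralogs, Fau and Rack1, the extremes of each subclone comparison and the 3 smallest p-values among subclones; others were named after their values were seen. Rpl6l, Rpl37rt and Rps12l1 were classed as paralogs after values were seen. Alternatives were other pseudocounts, filters, thresholds and tests, left-out replicates and the replicate number as a block. Some items covered by these rules are not reported here.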

Additional observations from a re-analysis of the deposited data

Results flagged for a closer look

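In groups of 4 libraries, 1 library can stand apart from the other 3. Of 162 groups looked at, 15 had a library whose gap to its nearest neighbour passed the critical value of Dixon's test, and chance gives about 1 in 20. In polyclonal cells these were the lowest values of Rps23-ps1 (1605.6 TPM, replicate 1), Rpl10-ps3 (1407.27 TPM, replicate 4) and Rpl27a (365.67 TPM, replicate 4), and the highest of Rpl39 (608.85 TPM, replicate 3). In WT5 replicate 1 was highest for Rpl10 (1815.54 TPM), for the sum of Rpl10 and Rpl10-ps3 (1828.18 TPM) and for the summed pseudogenes (5266.9 TPM). WT5 replicate 3 was lowest for Rps12-ps3 (29.75 TPM) and highest for Rpl28-ps1 (4.04 TPM), and WT5 replicate 4 was highest for Rpl39 (866.42 TPM) and Rps2-ps10 (29.68 TPM). In the subclones the values were 2.49 TPM for Rpl17-ps8 in subclone 1 replicate 2, 19.55 TPM for Rps2-ps10 in subclone 3 replicate 2, 0.94 TPM for Rpl7-ps7 in subclone 4 replicate 3 and 1351.07 TPM for Rpl36al in subclone 4 replicate 1.

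Between the 5 subclones, 8 of 133 members differed by the F-test of limma at the adjusted p-value alone, beside 25.0% over all genes. The adjusted p-values were 0.000323 for Rpl36al, 0.000375 for Rps29, 0.0011 for Rpl21, 0.00306 for Rpl6, 0.00332 for Rps7, 0.00517 for Rpl23a, 0.00819 for Rpl4 and 0.00839 for Rps6. None reached a pairwise z-score difference of 1.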

How the results depend on the processing

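Between WT5 and polyclonal cells 42 members were called, and 41 to 63 under another test, pseudocount or filter and with the replicate number as a block. The number was 115 of 138 tested at the adjusted p-value alone, with z-scores and also without them, and 70 with a log2 difference above 1 in place of the z-score. Over all genes 34.5% were higher and 30.9% lower at the adjusted p-value alone, and 45.2% and 21.6% without z-scores. Of the pair sums 2 were called, 4 with a pseudocount of 1, 5 among genes with a mean of at least 1 TPM, 1 with genes above 0 in any library, 46 at the adjusted p-value alone, 42 at it without z-scores, 18 with a log2 difference above 1, and 0 with every copy that shares sequence. In the subclones against WT5, 0 members were called in the main setting, 2 with genes above 0 in any library, 1 with a mean of at least 1 TPM, 82 at the adjusted p-value alone, 77 at it without z-scores and 10 with a log2 difference above 1, each counted once over the 5 comparisons. No share over all genes is given for counts over the 5 comparisons or with a log2 difference above 1, so these are not read as an excess. For pair sums of subclones the 0 became 40 and 29 at the adjusted p-value alone, with and without z-scores, and among subclones the 0 members became 8, beside 25.0% over all genes. The cause was not tested, beyond thresholds that are laxer by construction.

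With each library left out in turn, 41 to 45 members and 2 pair sums were called between WT5 and polyclonal cells, and 0 of either in the subclones. Summed TPM then ranged from 116837 to 121684 for genes and 30472 to 31680 for pseudogenes in polyclonal cells, and from 168652 to 172423 and 4727 to 4917 in WT5. With each library scaled by the TPM outside the members, the sums were 140095 and 36639 in polyclonal cells and 206848 and 5897 in WT5. The mean pseudogene share over all pairs was 28.4% and 3.61%, and 28.1% to 28.6% and 3.55% to 3.65% with a library left out. Same-numbered libraries did not deviate together (correlations of -0.0479 to 0.0671), so the replicate numbers do not pair them, and the block left the calls at 42 and 2. Read length, batch and line cannot be told apart, and TPM holds no depth to set a limit of detection.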
